A study of Mus musculus with 12 samples.

Results

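The mouse mitochondrial genome carries 13 protein genes, and 10 of them were examined here: mt-Co1, mt-Co2 and mt-Co3 of cytochrome c oxidase (complex IV), mt-Cytb of the cytochrome bc1 complex (complex III), mt-Atp6 of the ATP synthase (complex V), and mt-Nd1, mt-Nd2, mt-Nd4, mt-Nd5 and mt-Nd6 of NADH dehydrogenase (complex I). They were taken by name and Ensembl identifier from a count table of 55487 genes. A second table, of 10607 genes with scaled input and footprint values, listed 7 of the 10. mt-Co2, mt-Co3 and mt-Atp6 were not listed there, so their footprints were not analysed here.

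Liver was profiled in 3 wild-type (WT) mice and 3 mice lacking Mettl5 (KO), with littermates as controls. Mice of the same replicate number were taken as littermates, and the 6 are named below by genotype and litter as WT1 to KO3. The knockout removed the floxed exon 2 of Mettl5 in the whole body with Cre driven by a CMV transgene, in a line made from C57bl/6 x 129S6 hybrid stem cells and backcrossed to B6. Every liver, WT and KO alike, was lysed in cycloheximide and gave 1 input library, which measures transcript abundance, and 1 library of ribosome-protected fragments (RPF), made by digestion with MNase and isolation of monosomes. The 12 libraries fell into 4 groups of 3. The 6 animals are described here without their sex or age.

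Mitochondria transcribe their genome from both strands as long transcripts, which are cut at the tRNAs that punctuate them into messenger, ribosomal and transfer RNAs. The messages are translated inside the organelle by mitochondrial ribosomes, which carry their own rRNAs, mt-Rnr1 and mt-Rnr2, and every one of the proteins is a core subunit of the respiratory chain or of ATP synthase. METTL5 methylates the 18S rRNA of cytosolic ribosomes, and cycloheximide arrests cytosolic but not mitochondrial ribosomes. Liver is rich in mitochondria, most of them in hepatocytes.

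Input libraries held 8326325 to 11825643 counted read pairs, of which 51.8% to 70.1% lay in rRNA genes, most of them in the 18S gene. KO1 stood apart with the lowest rRNA share and 5694949 non-rRNA reads, against 2822433 to 3585595 in the other 5 libraries. The summed level of 6 hepatocyte markers was 58680 to 72794 reads per 1000000 non-rRNA reads in WT and 59074 to 76921 in KO, and those of 6 Kupffer cell and macrophage markers were 180.0 to 247.3 and 153.9 to 282.9. Of the other lists, the cholangiocyte markers were lowest but for T and B cells, with Cftr at 0 in all 6 libraries. Mettl5 had 21, 18 and 12 input counts in WT1, WT2 and WT3 and 13, 7 and 5 in KO1, KO2 and KO3, and its RPF values were 58.4, 47.8 and 53.1 against 8.34, 5.53 and 9.56. Both measures were thus lower in every KO library than in any WT library once scaled to depth, at 3.45 to 7.44 against 1.55 to 2.28 input reads per 1000000 non-rRNA reads. Reads left in KO mice can come from the exons that were not deleted.

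Of the 10 genes, 9 lie on the strand that mm10 gives as plus, and mt-Nd6 alone lies on the minus strand. In mm10 coordinates they are mt-Nd1 at chrM:2751-3707, mt-Nd2 at chrM:3914-4951, mt-Co1 at chrM:5328-6872, mt-Co2 at chrM:7013-7696, mt-Atp6 at chrM:7927-8607, mt-Co3 at chrM:8607-9390, mt-Nd4 at chrM:10167-11544, mt-Nd5 at chrM:11742-13565, mt-Nd6 at chrM:13552-14070 and mt-Cytb at chrM:14145-15288. Each is annotated as a single exon without introns. mt-Nd6 differs from the others in base composition, with 28.1% G and 5.97% C in its own sense, against at most 16.1% G and 23.8% to 27.7% C in the other 9. Its end shares 14 bases with the end of mt-Nd5 on the opposite strand, and mt-Atp6 shares 43 bases with mt-Atp8 and 1 base with mt-Co3 on the same strand. Counting used the strand, so the first of these overlaps does not mix reads of the 2 genes. The first bases of mt-Co1, mt-Nd1, mt-Nd2 and mt-Nd5, all 5′ to 3′ with the first codon in capitals, show the start codons that mitochondria use beside ATG.
mt-Co1, chrM:5328-5372: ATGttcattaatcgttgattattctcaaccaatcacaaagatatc
mt-Nd1, chrM:2751-2795: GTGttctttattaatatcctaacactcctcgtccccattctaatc
mt-Nd2, chrM:3914-3958: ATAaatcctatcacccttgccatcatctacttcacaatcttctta
mt-Nd5, chrM:11742-11786: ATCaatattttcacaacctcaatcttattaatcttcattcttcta

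mt-Co3, mt-Nd4 and mt-Cytb hold 1 base more than a whole number of codons and have no complete stop codon in the genome, since adenylation of the transcript supplies the missing bases. Their last 45 bases, with the last base in capitals, are shown here beside the end of mt-Nd6, whose TAA stop codon is in capitals and which is read from the minus strand.
mt-Co3, chrM:9346-9390: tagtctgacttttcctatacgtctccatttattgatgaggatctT
mt-Nd4, chrM:11500-11544: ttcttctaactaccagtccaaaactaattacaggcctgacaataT
mt-Cytb, chrM:15244-15288: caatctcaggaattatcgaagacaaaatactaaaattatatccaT
mt-Nd6, chrM:13552-13596: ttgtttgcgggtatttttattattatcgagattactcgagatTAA

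The authors kept only reads that aligned to a single place, and parts of the mitochondrial genome have copies in the nuclear genome. The part of these copies in the level of each gene was not tested. A stretch of chromosome 1, chr1:24611535-24616188 on the minus strand, was 99.9% identical to chrM:6390-11042 over 4654 aligned columns. Only 3 differences separated the pair: the substitutions A6393T in mt-Co1 and T9461C in mt-Nd3, with positions counted along chrM and the chrM base given first, and an extra base in the copy after position 9820 in a tRNA gene. Between the substitutions ran 3067 identical bases, which hold mt-Co2, mt-Atp8, mt-Atp6 and mt-Co3 whole. The edge of the copy inside mt-Co1 and the substitution in mt-Nd3 are printed with the shared stretch, or the differing base, in capitals.
chrM edge, chrM:6364-6423: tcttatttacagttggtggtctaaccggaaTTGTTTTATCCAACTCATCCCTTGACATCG
chromosome 1 edge, chr1:24616155-24616214: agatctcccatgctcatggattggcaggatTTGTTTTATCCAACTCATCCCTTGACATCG
mt-Nd3, chrM:9441-9481: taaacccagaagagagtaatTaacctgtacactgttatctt
chromosome 1 copy, chr1:24613097-24613137: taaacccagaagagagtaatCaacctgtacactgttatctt

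Windows of 50 bases, the length of an input read, measured how much of each gene was copied exactly. All windows of mt-Nd1, mt-Nd6 and mt-Cytb occurred once in the genome, as did 92.4% of those of mt-Nd5 and 91.7% of those of mt-Nd2. mt-Co1 had 48.9% and mt-Nd4 37.8%, and mt-Co2, mt-Co3 and mt-Atp6 had 0%. Input was sequenced in pairs, so a pair can be placed by either end, but trimmed reads were kept down to 15 bases. These shares can therefore understate or overstate what could be counted. How reads inside the 3067 identical bases, which hold mt-Co2, mt-Atp6 and mt-Co3, came to be counted was not tested. A pair of further copies, on chromosome 2 with 97.4% identity to chrM:4441-7699 and on chromosome 4 with 93.0% identity to chrM:12488-15359, overlap mt-Nd2, mt-Co1 and mt-Co2 and mt-Nd5, mt-Nd6 and mt-Cytb in turn.

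The genes without unique windows were the 3 lowest of the 10. In reads per kilobase of gene per 1000000 non-rRNA reads, mt-Co1 was highest with 2452 ± 425 (SD over 6 livers) and mt-Cytb next with 1360 ± 215, and the ranges of these 2 genes did not overlap. mt-Nd2 (864 ± 117), mt-Nd1 (780 ± 121), mt-Nd6 (757 ± 167) and mt-Nd5 (588 ± 82.1) followed, each overlapping its neighbour in range. mt-Nd2 exceeded mt-Nd1 in 6 of 6 livers, but mt-Nd1 exceeded mt-Nd6 in only 3 of 6. mt-Nd4 was lower at 263 ± 32.6 and did not overlap mt-Nd5. mt-Co2 (62.4 ± 16.7) and mt-Co3 (47.6 ± 13.2) overlapped one another, and mt-Atp6 was lowest with 11.3 ± 5.48. The step from mt-Nd4 to mt-Co2 was 4.22-fold. By counts mt-Co1 ranked 15 and mt-Cytb 50 among 55131 non-rRNA genes, and mt-Atp6 ranked 7438.

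**Figure D1:**
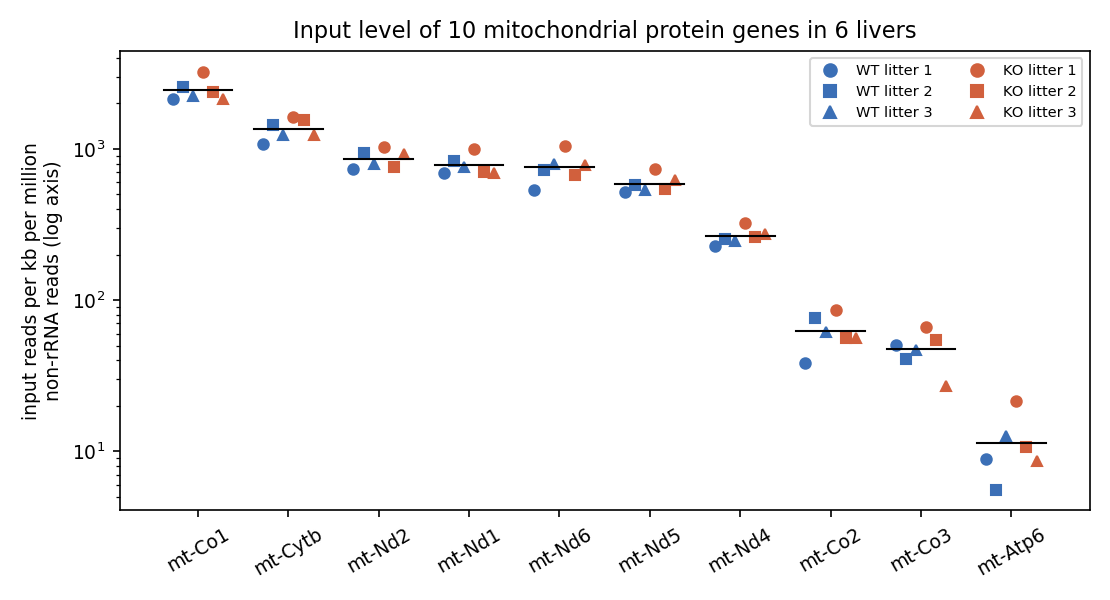
Input reads per kilobase per 1000000 non-rRNA reads (log axis) for each gene, with 1 point per liver, colour for genotype, marker shape for litter and a line at the mean of 6 livers. The 7 genes with unique windows lie between 227 and 3246, and mt-Co2, mt-Co3 and mt-Atp6 between 5.57 and 86.3.

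When reads were counted per 1000 unique windows rather than per kilobase, the step at mt-Nd4 was gone. mt-Nd4 then had 723 ± 89.6 and lay above mt-Nd5 (654 ± 91.3) in 6 of 6 livers with overlapping ranges, while mt-Co1 rose to 5181 ± 898, 3.65-fold above mt-Cytb. The 3 genes without unique windows have no value on this scale.

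**Figure D2:**
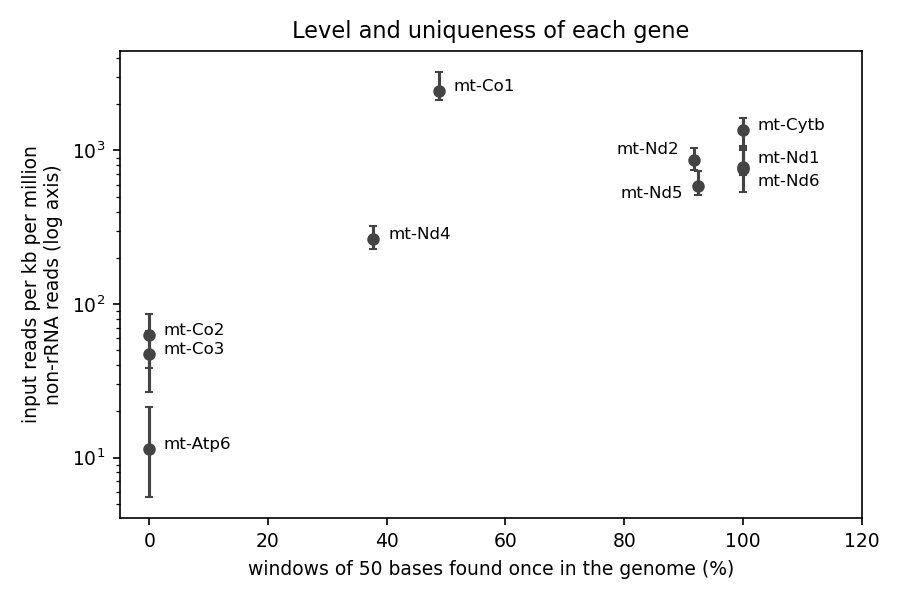
Mean input reads per kilobase per 1000000 non-rRNA reads (log axis) against the percentage of 50-base windows found once in the genome, with bars from the lowest to the highest of 6 livers. The 3 genes at 0% lie lowest, and mt-Co1, at 48.9%, lies above the genes with 91.7% to 100%.

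The chromosome 1 copy is annotated as a row of unprocessed pseudogenes, and each of the 7 had reads in every library. Gm28661, the copy of mt-Co2, had 65, 115, 152, 318, 119 and 103 counts in WT1, WT2, WT3, KO1, KO2 and KO3, beside 74, 150, 147, 336, 138 and 124 for mt-Co2. Over the 6 livers 52.6% of the reads of this pair were counted on chrM, as were 47.3% for mt-Co3 and its copy Gm28437 and 37.1% for mt-Atp6 and its copy Gm10925. By library the last ranged from 20.0% in WT2 to 43.6% in WT1. The matching shares were 99.8% for mt-Co1 and 98.6% for mt-Nd4, which are partly copied. Counts of mt-Co2, mt-Co3 and mt-Atp6 are therefore not comparable in level with those of the other 7, and whether they came from mitochondrial or nuclear transcripts cannot be told apart.

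In input, no gene of the 10 differed between KO and WT beyond the spread between mice. edgeR's quasi-likelihood test called 0 of 10 at an adjusted p under 0.05, with a background of 0.0% over 10057 genes tested, and 0 of 10 had an unadjusted p under 0.05. The log2 fold changes ran from −0.00 ± 0.14 (SE) for mt-Nd1 to 0.51 ± 0.35 for mt-Atp6, and the adjusted p was 0.999 for each. Their median was 0.15, beside −0.00 for all genes tested. DESeq2 also called 0 of 10, and over all genes it called 1 where edgeR called 0, with 348 at an unadjusted p under 0.05 in edgeR. The targeted gene Mettl5 did not pass in edgeR either, with a log2 fold change of −1.59 ± 0.46 and an adjusted p of 0.999. In limma Mettl5 passed in RPF (−2.64 ± 0.36, adjusted p = 0.00504) but not in TE (−1.16 ± 0.51, adjusted p = 0.998).

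mt-Co1, the catalytic core of cytochrome c oxidase, took 0.330%, 0.400% and 0.344% of non-rRNA reads in WT1, WT2 and WT3 and 0.501%, 0.367% and 0.331% in KO1, KO2 and KO3. KO1 was highest and the other KO mice lay inside the WT range, giving a log2 fold change of 0.09 ± 0.15 in edgeR. mt-Cytb, the subunit of the bc1 complex that holds both b hemes, took 0.123%, 0.164% and 0.142% in WT and 0.186%, 0.178% and 0.140% in KO. The groups overlapped through KO3, and the log2 fold change was 0.19 ± 0.14.

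For the 5 complex I subunits the groups overlapped in all but mt-Nd4, and none of the 5 passed in edgeR. mt-Nd4, a proton-pumping subunit, was the only member of the 10 whose groups did not overlap, with 0.0313%, 0.0351% and 0.0336% of non-rRNA reads in WT and 0.0444%, 0.0359% and 0.0374% in KO. Such a separation was found for 6.25% of all genes tested, and the log2 fold change of mt-Nd4 was 0.18 ± 0.13 with an unadjusted p of 0.187 and an adjusted p of 0.999 in edgeR. The exact two-sided permutation test of these shares gave p = 0.1, the smallest that 3 against 3 mice allow. mt-Nd5, another pumping subunit, took 0.0940%, 0.106% and 0.0976% in WT and 0.134%, 0.0985% and 0.114% in KO, and mt-Nd6, the only one of the 10 on the minus strand, took 0.0278%, 0.0375% and 0.0412% and 0.0539%, 0.0347% and 0.0404%. Both overlapped between genotypes, and so did mt-Nd1 (0.0666%, 0.0796% and 0.0731% against 0.0958%, 0.0671% and 0.0659%) and mt-Nd2 (0.0770%, 0.0969% and 0.0819% against 0.107%, 0.0788% and 0.0962%). In all 5 subunits KO1 was the highest of the 6 livers as a share of non-rRNA reads. In counts per 1000000 scaled by the trimmed mean of M-values, as edgeR used them, KO3 was highest for mt-Nd2, mt-Nd4 and mt-Nd5.

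The 3 copied genes had few reads and wider errors. mt-Co2, the subunit that accepts electrons from cytochrome c, had log2 fold change 0.12 ± 0.19, and mt-Co3 had 0.01 ± 0.23 on 112, 93, 127, 296, 152 and 68 counts. mt-Atp6, part of the proton channel of ATP synthase, had 17, 11 and 30 counts in WT and 83, 26 and 19 in KO, with a fold change of 0.51 on the log2 scale, the largest of the 10. Without KO1 it was 0.16 ± 0.39.

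**Figure D3:**
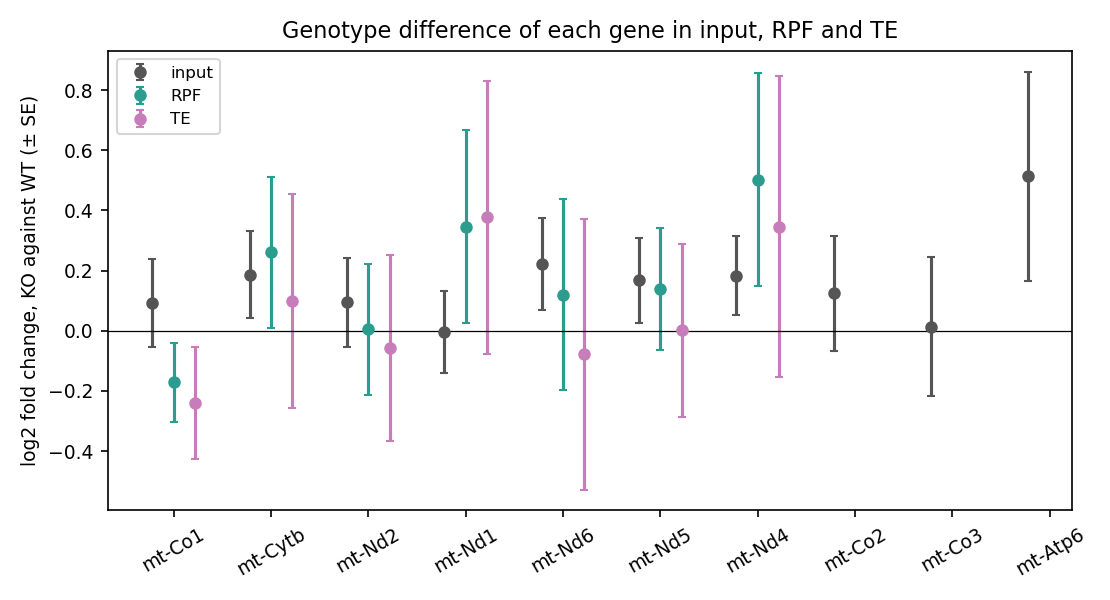
log2 fold change of KO against WT with its standard error for each gene, from edgeR for input (10 genes) and limma for RPF and TE (7 genes). No gene passed an adjusted p of 0.05 in any of the 3 comparisons.

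Together the 10 genes took 0.757%, 0.927% and 0.822% of non-rRNA input reads in WT1, WT2 and WT3 and 1.14%, 0.869% and 0.832% in KO1, KO2 and KO3. The means were 0.835% ± 0.0862 in WT and 0.945% ± 0.166 in KO (SD, n = 3), and the groups overlapped. Only KO1 lay above the WT range. Without KO1 the difference of means fell from 0.110 to 0.0149 percentage points, and KO was higher than its littermate in 2 of 3 litters. Counting error was small beside this spread, with a 95% Wilson interval of 0.747% to 0.767% for WT1 and 1.13% to 1.14% for KO1, and these intervals cover counting error only. With other denominators the mean of KO also exceeded that of WT. The difference was 0.0776 percentage points of all counts and 0.124 with Lars2 left out of the non-rRNA reads. Among the genes of the scaled table it was 0.119. Lars2 took 16.8% of the non-rRNA reads in KO1, the lowest share of any input library, and up to 26.8% in WT1. Where the Lars2 reads came from was not tested. Of all counts KO was higher in 1 of 3 litters, and without KO1 the difference turned to −0.0155. With Lars2, Mir6236 and Gm15564 left out, a choice made after seeing the data, KO was higher in 3 of 3 litters by a mean of 0.122, KO2 (1.35%) also lay above the highest WT value (1.31%), and without KO1 the difference was 0.0747. Which KO mice lay above the WT range thus depended on the denominator. In bulk tissue a different number of cells or mitochondria and a different amount of RNA in each cannot be told apart.

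As shares of the reads of the 10 genes, the 7 abundant messages varied less between mice, relative to their own size, than mt-Co2, mt-Co3 and mt-Atp6. mt-Co1 made up 41.8% to 43.6% of the reads of the 10 genes in WT and 39.8% to 44.1% in KO, and mt-Cytb 16.2% to 17.7% and 16.4% to 20.5%. mt-Atp6 made up 0.0409% to 0.128% over the 6 livers. mt-Nd1 was the only gene of the 10 whose share separated the groups, with 8.80%, 8.58% and 8.89% in WT against 8.43%, 7.73% and 7.92% in KO. This measure is defined only within the 10 genes, so it has no background over all genes. With each mouse left out in turn, the difference of mt-Nd1 ran from −0.934 to −0.584 percentage points. Its sign could not change in these runs, because the groups did not overlap. The exact permutation test gave 0.1, again the smallest possible, which also follows from that separation. As a share of non-rRNA reads mt-Nd1 was not lower in KO, with means of 0.0731% in WT and 0.0763% in KO and overlapping groups. The ratio of mt-Nd6 to mt-Nd5, which sets the strands against each other, was 0.296, 0.355 and 0.422 in WT and 0.402, 0.352 and 0.355 in KO and overlapped.

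Set against the mitochondrial rRNAs, which come from the same genome, the messages varied more. The 10 genes had 3.80, 5.56 and 5.78 reads per 100 mitochondrial rRNA reads in WT1, WT2 and WT3 and 9.16, 3.88 and 4.01 in KO1, KO2 and KO3. KO1 had the most and the other KO mice lay within the WT range, near WT1. On the log2 scale the difference of KO and WT means was 0.07, and without KO1 it was −0.33. One round of rRNA depletion was applied before sequencing, and mitochondrial rRNA was 5.08% to 7.39% of all counts, and the part of depletion in this ratio was not tested. mt-Rnr1 and mt-Rnr2 themselves had log2 fold changes of 0.08 ± 0.37 and 0.12 ± 0.30 in edgeR.

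**Figure D4:**
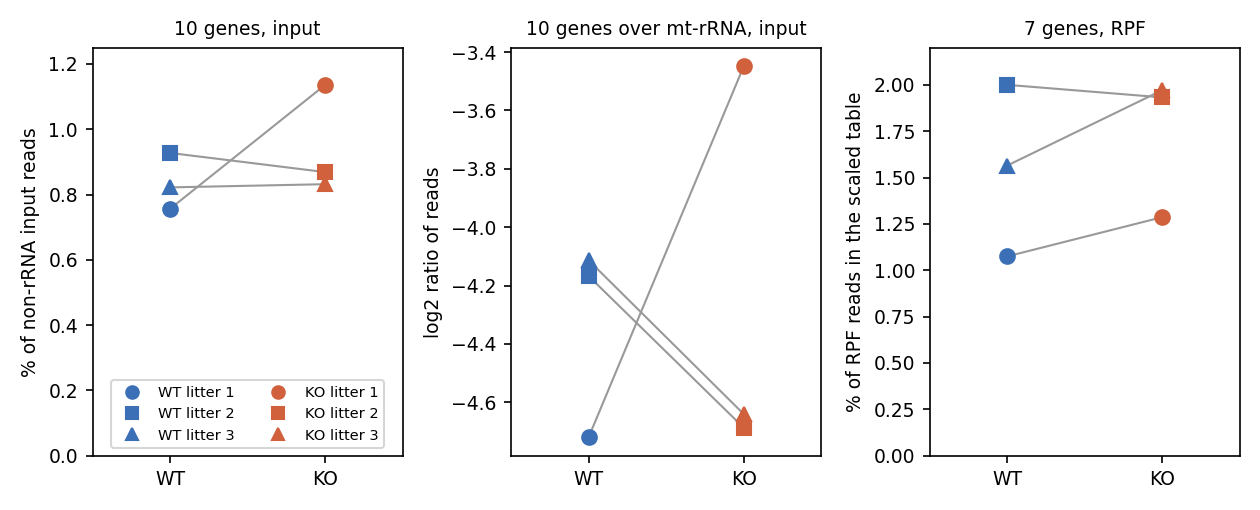
Left, percentage of non-rRNA input reads in the 10 genes; middle, log2 ratio of their reads to mitochondrial rRNA reads; right, percentage of RPF reads of the scaled table in 7 genes, with lines joining littermates. KO1 is highest in the left and middle panels, and both mice of litter 1 are lowest in the right panel.

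In the RPF libraries the 7 listed genes took 1.07%, 2.00% and 1.56% of the reads of the scaled table in WT1, WT2 and WT3 and 1.29%, 1.93% and 1.97% in KO1, KO2 and KO3. Both mice of litter 1 lay below the other 4, and the means of 1.55% ± 0.463 and 1.73% ± 0.385 (SD, n = 3) overlapped. In the input columns of the same table the 7 genes took 0.882% to 1.05% in WT and 0.976% to 1.25% in KO, with KO1 highest. Fragments from mitochondrial and cytosolic ribosomes were not separated in these values. Whether ribosomes protected the fragments of the 7 genes was not tested.

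limma on log2(value + 1) called 0 of 7 genes in RPF at an adjusted p under 0.05, beside 0.489% of the 8994 genes tested, and 0 of 7 had an unadjusted p under 0.05. edgeR on the whole reads behind the values also called 0 of 7. With litter as a replicate block limma called 293 genes in place of 44 and still 0 of 7, the smallest adjusted p among them being 0.400. Groups overlapped for all 7, while 19.8% of genes tested had groups that did not overlap. mt-Nd4 had RPF values of 475, 1669 and 1045 in WT and 1146, 1391 and 1479 in KO. WT1 was the lowest of the 6 mice, and the log2 fold change of 0.50 ± 0.35 (adjusted p = 0.581, limma) became 0.01 without WT1. Without WT2 it was 0.92, with an unadjusted p of 0.00296 and an adjusted p of 0.249 in limma. The limma errors and p-values of all 7 genes rest on a spread that RPF shared with input, where each gene varied less. These errors do not measure the spread of RPF alone. mt-Nd1 had 2684, 7883 and 5492 in WT and 4661, 7399 and 6925 in KO, and its log2 fold change went from 0.35 ± 0.32 to −0.08 without WT1. mt-Cytb moved in the same way, from 0.26 ± 0.25 to −0.07. mt-Co1 had 24734, 28778 and 23844 in WT and 20113, 24306 and 24292 in KO, with a log2 fold change of −0.17 ± 0.13. It was the only gene of the 7 with a negative change in RPF in limma, while in edgeR on whole reads mt-Nd2 was negative too.

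WT1 also had the lowest footprint value of the 6 mice for the other 4 genes. mt-Cytb had RPF values of 8843, 20051 and 15107 in WT and 12375, 18943 and 19631 in KO, and mt-Nd2 had 8525, 18016 and 12216 and 10007, 13141 and 14416. WT2 was the highest of the 6 for both. mt-Nd5 had 9038, 17582 and 12115 and 10556, 15772 and 15455, and mt-Nd6 had 2048, 5402 and 4291 and 2921, 4242 and 4913, again with WT2 highest. The log2 fold changes of mt-Nd2, mt-Nd5 and mt-Nd6 were 0.01 ± 0.22, 0.14 ± 0.20 and 0.12 ± 0.32. In RPF reads per kilobase per 1000000 reads of the table, mt-Co1 was highest with 3316 ± 387 (SD over 6 mice), before mt-Cytb (2947 ± 953) and mt-Nd2 (2594 ± 721), and mt-Nd4 was lowest with 186 ± 68.9. Neighbours in this order overlapped in range, except that mt-Nd4 lay below mt-Nd1 (1302 ± 474) without overlap.

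Footprints of litter 1 were below those of all 4 other mice for 5 of the 7 genes. For mt-Nd4 KO1 lay above WT3, and mt-Co1 showed no such split. The mean RPF value of its 2 mice was 52.7% of that of the other 4 mice for mt-Nd6, 53.0% for mt-Nd1, 57.6% for mt-Cytb, 58.1% for mt-Nd4, 64.1% for mt-Nd2 and 64.3% for mt-Nd5, but 88.6% for mt-Co1. In input the same comparison gave 89.9% to 105% for all 7. The mouse of litter 1 had the lowest RPF value of its genotype in both genotypes for 6 of 7 genes, a pattern found for 18.4% of the 8994 genes tested. For RPF over input it held for 7 of 7, beside 14.0% of genes. Whether this split followed the litter or anything else that the mice numbered 1 shared was not tested.

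The spread between mice of a genotype, as the SD of log2 values, was 0.07 to 0.19 for the 7 genes in input, below the median of 0.26 for all genes tested. In RPF it was 0.41 to 0.66 for 6 of the genes, above the median of 0.25 over all genes, and 0.15 for mt-Co1. These genes are among the more deeply counted, and the part of depth in the input spread was not tested. mt-Co1 made up 43.9% of the RPF reads of the 7 genes in WT1 and 27.9% to 32.6% in the other 5 mice, against 40.1% to 44.6% of their input reads.

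RPF over input, the translation efficiency (TE) in the sense of the study, ordered the genes differently from their levels. On the log2 scale mt-Nd2 was highest with 1.58 ± 0.34 (SD over 6 mice), followed by mt-Nd5 (1.40 ± 0.38), mt-Cytb (1.09 ± 0.37), mt-Nd6 (1.08 ± 0.47), mt-Nd1 (0.68 ± 0.60), mt-Co1 (0.48 ± 0.20) and mt-Nd4 (−0.58 ± 0.62). Neighbours overlapped in range down to mt-Co1, which did not overlap mt-Nd4. mt-Nd2 exceeded mt-Nd5 in 6 of 6 mice, and mt-Cytb exceeded mt-Nd6 in 3 of 6. Of the 10607 genes in the table, 95.7% had a lower mean than mt-Nd2, 93.2% a lower one than mt-Nd5 and 30.6% a lower one than mt-Nd4. RPF reads are shorter than input reads, and for windows of 28 bases the unique shares were 33.3% for mt-Co1 and 36.3% for mt-Nd4 against 80.4% to 100% for the other 5 genes. The part of these shares in RPF over input was not tested.

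**Figure D5:**
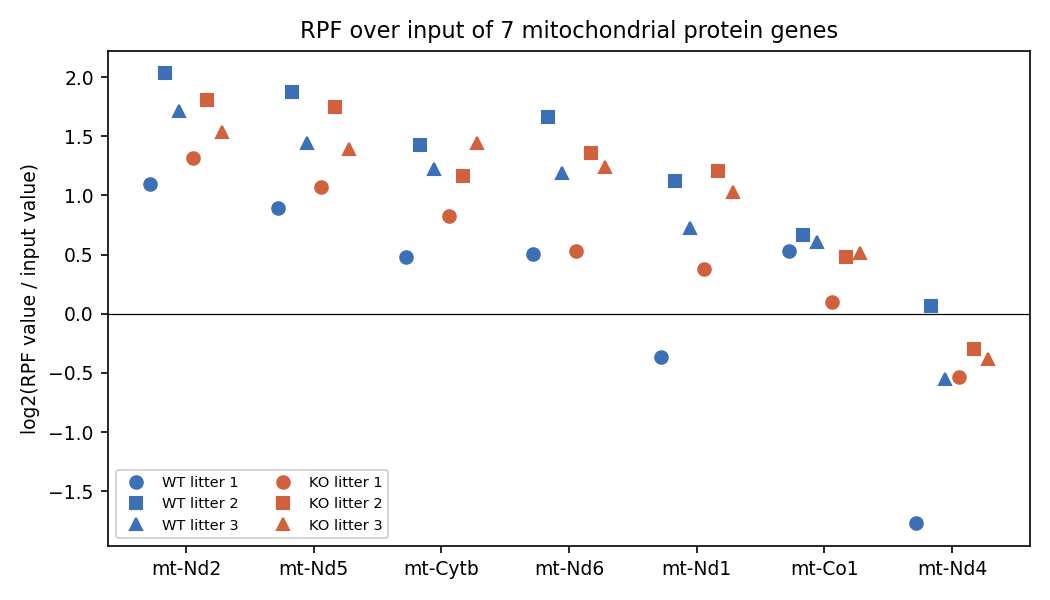
log2 of the RPF value over the input value for 7 genes, with 1 point per mouse, colour for genotype and marker shape for litter. Within each genotype the mouse of litter 1 (circles) is lowest for all 7 genes.

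TE did not differ between genotypes beyond the spread for any of the 7 genes. limma called 0 of 7, with a background of 0.0% of 8994 genes (423 at an unadjusted p under 0.05), and 0 of 7 had an unadjusted p under 0.05. mt-Co1 was the only gene whose RPF over input separated the groups, with 1.45, 1.58 and 1.52 in WT and 1.07, 1.39 and 1.42 in KO, a separation seen in 13.4% of genes tested. Its log2 fold change in TE was −0.24 ± 0.19 (adjusted p = 0.998, limma), and −0.11 without KO1. For mt-Nd2 the ratios were 2.14, 4.09 and 3.27 in WT and 2.49, 3.50 and 2.91 in KO, and for mt-Nd5 1.86, 3.66 and 2.72 and 2.10, 3.36 and 2.63. In both genes the KO values lay inside the WT range, and the log2 fold changes were −0.06 ± 0.31 and 0.00 ± 0.29.

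Of the remaining protein genes of chrM only mt-Nd3 was tested. mt-Nd3 of complex I, with 1.00% of windows unique, had 29, 39 and 40 input counts in WT and 123, 25 and 52 in KO. Its RPF values of 100.2, 114.3 and 58.8 in WT and 27.1, 90.4 and 37.3 in KO overlapped through KO2, with a log2 fold change of −0.94 ± 0.44 and an adjusted p of 0.382 in limma. Without KO2 it was −1.44 ± 0.28 with an adjusted p of 0.0519 in limma. Leaving out the mouse of the overlap separates the groups, so this run cannot test the difference. The RPF reads behind the KO values were 39, 147 and 39, and 0.93% of the windows of 28 bases were unique. mt-Nd4l had 4 to 13 input counts, and mt-Atp8 had 1, 0 and 0 in WT and 6, 2 and 4 in KO, where 0 of 2900978 non-rRNA reads in WT2 allow a share of up to 0.000103%, taken as 3 counts of the total. Neither entered the edgeR fit.

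Genes that act on mitochondrial messages were measured in the same input fit. Of 24 tRNA and rRNA genes of chrM, 19 were tested and none passed in either direction, with a median log2 fold change of −0.01. None of 13 tested genes of mitochondrial DNA transcription and replication passed. Their smallest p was that of Ssbp1, which binds single-stranded mitochondrial DNA, with 32, 31 and 36 counts in WT and 40, 24 and 18 in KO (log2 fold change −0.80 ± 0.26, unadjusted p = 0.00833, adjusted p = 0.999 in edgeR), and next came Twnk, the replicative helicase, with 0.19 ± 0.21. Of the 20 tested genes for processing, stability and decay of mitochondrial RNA, none passed. Slirp, partner of Lrpprc in holding messages stable, had −0.56 ± 0.29 and Fastkd1 0.44 ± 0.23. Of 16 tested genes of mitochondrial translation none passed, and Mrrf, the ribosome recycling factor, had 0.41 ± 0.24 and Oxa1l, which inserts the products into the inner membrane, 0.30 ± 0.21.

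The nuclear subunits that assemble with the mitochondrial ones also did not pass in either direction: 0 of 7 core subunits of complex I, 0 of 9 of complex III, 0 of 10 of complex IV and 0 of 9 tested of complex V. Their median log2 fold changes were −0.06, 0.03, −0.01 and −0.01, beside 0.15 for the 10 mitochondrial genes and −0.00 for all genes tested. The smallest p-values belonged to Ndufs3 (−0.33 ± 0.17) and Ndufv2 (0.26 ± 0.17) in complex I, Uqcr11 (0.13 ± 0.15) and Uqcrfs1 (0.08 ± 0.14) in complex III, Cox8a (0.15 ± 0.22) and Cox5a (0.08 ± 0.14) in complex IV and Atp5f1 (−0.23 ± 0.15) and Atp5d (−0.18 ± 0.13) in complex V. In input, Ssbp1 was the only gene of these lists with an unadjusted p under 0.05. In RPF and TE no tested gene of these lists passed in limma either. In RPF 3 of 8 tested genes of complex V had an unadjusted p under 0.05. Their median log2 fold change was −0.27, beside −0.03 for all genes tested. In TE 2 of 7 genes of complex I and 2 of 8 of complex V had such a p. Every other list and measure had at most 1. Over all 8994 genes tested 1205 in RPF and 423 in TE had such a p.

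The nuclear genes whose input level over the 6 livers was most like the mean of the 10 genes, among 5688 with a mean of at least 50 counts, were Lsm14b, 1700020I14Rik and Rnf168, with Pearson r of 0.984, 0.975 and 0.972 between log2 values. Lsm14b had 5.36, 5.87 and 5.91 counts per 1000000 in WT and 8.26, 6.84 and 6.98 in KO. In all 3 KO1 was the highest library. The 6 points share the scaling of their libraries, and the likeness is a description only.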

How the data were processed

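Livers of 3 WT and 3 Mettl5 KO mice, taken as pairs of littermates by replicate number, gave input and RPF libraries. For input the authors used BBDuk for trimming and STAR for alignment to mm10 (STAR 2.7.3a in the submitters' notes) and deposited counts of uniquely mapped read pairs per gene from featureCounts, given as 1.6.0 in those notes and 2.0.3 in the file header. For RPF the authors took the first read, 25 to 34 bases long, removed rRNA reads and aligned with RiboToolkit, allowing 2 mismatches and 1 location, without removing duplicates. The second deposited table held a scaled signal per gene, which equals whole reads times 1 factor per library. The rule that chose its genes is not given in the sources used here. The deposited log2 fold changes and p-values hold the authors' own comparisons and were not used.

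Input counts were tested with edgeR 4.0.16 (TMM, filterByExpr, quasi-likelihood) and scaled values with limma 3.58.1 on log2(value + 1), for genes with a mean of at least 10, with p-values adjusted by Benjamini-Hochberg over all genes tested. TE was the RPF change minus the input change. The limma fit used a single estimate of spread per gene over RPF and input, without a term for the mouse. Fold changes on this log scale understate those of low genes. DESeq2 1.42.0 was an alternative. Shares used counts outside 356 rRNA genes, and single shares were compared by two-sided exact permutation tests, where 3 against 3 mice cannot go below 0.1 and sign flips over 3 litters cannot go below 0.25. Nuclear copies were sought with blastn 2.17.0 and windows of 50 and 28 bases. Of 55487 identifiers 55141 matched a symbol. The code was tested on simulated data. Named were the 10 genes, the rest of chrM, the 2 genes of smallest p in each list and the 3 genes most alike in input. The genes and lists were chosen with earlier results of these data known.

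The sample titles number the mice of each genotype but name no litter, and the paper describes the WT mice as littermate controls. Mice of the same number were taken as littermates. Their deviations correlated at 0.0816 to 0.127 in input and 0.144 to 0.242 in RPF, across genes. For mice of unlike number the correlations were −0.117 to 0.0169 in input and −0.239 to 0.0813 in RPF.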

Additional observations from a re-analysis of the deposited data

How the results depend on the processing

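No gene of the 10 in input, or of the 7 in RPF and TE, passed an adjusted p of 0.05 under any alternative run. With litter as a replicate block, 0 passed in each, and the log2 fold change of mt-Co3 in input turned to −0.035. That of mt-Nd1 in input turned to 0.0092 without a count filter and to 0.0084 at a mean of at least 50 counts, and that of mt-Nd2 in RPF to −0.0051 with edgeR on whole reads, chosen after seeing the data. All of these lay near 0, and the cause was not tested. The number of genes called moved more. In input it was 0, but 1 with DESeq2, 2 with the replicate block and 30 without a count filter. In RPF it was 44, but 293 with the block and 20 with edgeR on whole reads.

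Leaving out each mouse in turn gave log2 fold changes in input from −0.055 to 0.31 for mt-Co2, −0.12 to 0.24 for mt-Co3, −0.052 to 0.043 for mt-Nd1 and −0.023 to 0.18 for mt-Nd2. In RPF they ran from −0.065 to 0.53 for mt-Cytb, −0.085 to 0.69 for mt-Nd1, −0.26 to 0.28 for mt-Nd2, −0.091 to 0.39 for mt-Nd5 and −0.29 to 0.41 for mt-Nd6. In TE they ran from −0.18 to 0.29 for mt-Cytb, −0.050 to 0.69 for mt-Nd1, −0.32 to 0.15 for mt-Nd2, −0.16 to 0.75 for mt-Nd4, −0.25 to 0.24 for mt-Nd5 and −0.39 to 0.19 for mt-Nd6. Shares within the 10 genes differed by −1.83 to 0.350 percentage points for mt-Co1, −0.0609 to 0.0446 for mt-Co2, −0.0847 to 0.0346 for mt-Co3, −0.418 to 1.61 for mt-Cytb, −0.942 to 0.306 for mt-Nd2 and −0.319 to 0.860 for mt-Nd5. The summed input share differed by 0.0149 to 0.167 percentage points, that of 7 genes in RPF by −0.0523 to 0.410, and the log2 ratio to mitochondrial rRNA by −0.33 to 0.29. Each of these fits leaves 2 mice in 1 genotype.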
